A study of Caenorhabditis elegans with 2 samples.

Results

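The small nuclear RNA (snRNA) genes of Caenorhabditis elegans were examined for binding of the protein encoded by F16B12.6. The members were all genes that the Ensembl WBcel235 annotation gives the biotype snRNA on the 6 nuclear chromosomes, 129 of 46890 annotated genes. A member was counted as having a summit, the position of highest signal within a peak, when 1 lay within 200 bp or within 500 bp on either side of its annotated 5′ end. The rule uses the annotation and no binding value, but it was set with earlier results of these data known. The study was a chromatin immunoprecipitation sequencing (ChIP-seq) experiment on whole L1 larvae, the first larval stage, with pooled males and females of unknown age. All animals were of strain OP114, which carries unc-119(tm4063) on chromosome III and the transgene wgIs114, from which F16B12.6 is made as a fusion with eGFP, a green fluorescent protein. The single group held 2 biological replicates, so no group could be compared with another and no test between conditions was made. The sources used here do not give the promoter that drives the transgene, and peak lists cannot show whether the larvae expressed stage or tissue markers.

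Spliceosomal snRNAs pair with the pre-mRNA and with each other to remove introns, and in nematodes the spliced leader RNAs donate their 5′ ends to other transcripts by trans-splicing. Most such genes are transcribed by RNA polymerase II and the U6 genes by RNA polymerase III. Both kinds have a proximal sequence element a short way upstream of the start, which the SNAPc complex binds. The genes are small, occur in many near-identical copies, and often lie within or between protein-coding genes.

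By sequence, 120 of the 129 members fell into 9 families of similar genes, and 9 were in no family of 3 or more. The annotation names the sls and smy genes but gives no U number to the others, so these families are called here by the letters they share. Group U6 letters (24 genes) holds ACAGAGA, group U1 letters (14) ACTTACCT, group U5 letters (12) GCCTTTTAC, group U4 letters (5) AGCTTTGC and group U2 letters (19) GTAGTA, which are known stretches of those snRNAs. The remaining families are sls-2 (19 genes, RNAs of the SL2 type), sls-1 (12, SL1 RNA), smy (9, RNAs found with Sm proteins and linked to trans-splicing) and 6 other repeated genes. The sls-2 family includes ZK1251.14, which has no sls name, and smy-10 was in no family. The letters were present in 22 of 24, 12 of 14, 11 of 12, 5 of 5 and 18 of 19 genes of the respective groups. A gene with a thresholded summit within 500 bp is shown for 4 of the families. At sls-2.8, sup-6 and C52E4.8 it lay within 200 bp, but at smy-1 it lay past the end of the gene. Capitals mark the shared letters of the group or, in sls-2.8 and smy-1, a U-rich stretch of the kind that Sm proteins bind. The genes lie at III:12250465-12250575 (sls-2.8, plus strand), II:12944803-12944967 (sup-6, minus), V:11980118-11980261 (C52E4.8, plus) and IV:9511763-9511839 (smy-1, minus), in WBcel235, which is ce11. All sequences are from the RefSeq genome of that assembly, written 5′ to 3′ on the gene's strand as DNA.
sls-2.8: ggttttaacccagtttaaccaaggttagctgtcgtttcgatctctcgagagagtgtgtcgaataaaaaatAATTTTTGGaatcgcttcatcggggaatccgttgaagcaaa
sup-6: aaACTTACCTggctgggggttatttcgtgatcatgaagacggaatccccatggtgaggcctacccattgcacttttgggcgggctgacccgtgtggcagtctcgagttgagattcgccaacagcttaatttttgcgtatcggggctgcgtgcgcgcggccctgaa
C52E4.8: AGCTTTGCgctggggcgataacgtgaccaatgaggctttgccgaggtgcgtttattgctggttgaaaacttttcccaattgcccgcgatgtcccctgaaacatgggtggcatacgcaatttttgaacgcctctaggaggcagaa
smy-1: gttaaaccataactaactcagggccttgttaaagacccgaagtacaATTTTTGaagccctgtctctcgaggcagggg

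The DNA just upstream of 11 members is shown because most of the summits described below lay in it. Each line gives the 85 bases that end at the last base before the annotated 5′ end. Capitals mark CGNAACCC, in which N is any base, and TGTC where it starts 60 to 32 bases upstream. The first 7 genes had a thresholded summit within 200 bp and the last 4 had none. The last 4 are F40G12.14 (group U1 letters), K03B8.10 (group U4 letters), W07G1.9 (group U2 letters) and the SL1 RNA gene sls-1.10.
sls-2.8: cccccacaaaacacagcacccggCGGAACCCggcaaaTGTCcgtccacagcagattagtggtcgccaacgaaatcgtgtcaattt
sls-2.14: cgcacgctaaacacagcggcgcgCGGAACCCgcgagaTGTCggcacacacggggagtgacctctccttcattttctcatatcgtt
W05B2.8: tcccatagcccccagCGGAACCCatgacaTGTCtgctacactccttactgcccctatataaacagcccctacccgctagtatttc
F38E11.10: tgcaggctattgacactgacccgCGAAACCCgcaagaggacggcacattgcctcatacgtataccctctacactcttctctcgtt
sup-6: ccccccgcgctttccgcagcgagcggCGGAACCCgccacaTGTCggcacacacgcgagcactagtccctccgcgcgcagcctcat
C52E4.8: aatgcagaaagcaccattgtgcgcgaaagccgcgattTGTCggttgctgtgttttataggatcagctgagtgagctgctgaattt
sls-2.1: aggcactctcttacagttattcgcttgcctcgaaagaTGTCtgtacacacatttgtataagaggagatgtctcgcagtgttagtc
F40G12.14: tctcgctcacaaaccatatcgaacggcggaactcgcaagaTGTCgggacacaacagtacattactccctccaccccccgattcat
K03B8.10: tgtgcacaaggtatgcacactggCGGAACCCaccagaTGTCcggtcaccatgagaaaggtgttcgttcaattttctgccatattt
W07G1.9: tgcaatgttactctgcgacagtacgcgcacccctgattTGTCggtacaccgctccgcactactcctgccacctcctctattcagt
sls-1.10: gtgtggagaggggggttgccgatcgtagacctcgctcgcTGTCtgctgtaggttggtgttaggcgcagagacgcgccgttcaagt

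Many members shared letters at nearly the same distance from the start, although not every gene shown did. Among the first 7 genes, C52E4.8 and sls-2.1 lack CGNAACCC, and among the last 4 only K03B8.10 has it. CGNAACCC stood in the upstream 100 bp of 46 of the 129 members (35.7%) on the gene's strand, beginning at a median of 61 bases upstream, and in 0.220% of protein-coding genes. With both strands searched, the same 46 members held it, against 0.336% of protein-coding genes. In 32 members (24.8%) the word was followed by TGTC, always after exactly 6 bases although gaps of up to 12 were allowed. The word pair began 74 to 58 bases upstream, with a median of 62, and was found in 0.0150% of protein-coding genes. Small nucleolar RNA (snoRNA) genes shared both, with the pair upstream of 24 of 346 (6.94%) and CGNAACCC upstream of 27 of the 346. Neither was thus particular to the members. The 3 words of 8 letters that most members held were CGGAACCC (31 members), GCGGAACC (30) and GGAACCCG (24), which overlap each other and CGNAACCC; on both strands they stood in the same numbers of members and in 0.0501%, 0.0851% and 0.0801% of protein-coding genes. CGNAACCC and the pair were chosen after the upstream sequences were seen. The pair was present in 10 of 14 genes with the U1 letters, 9 of 19 sls-2 genes, 6 of 12 with the U5 letters, 5 of 24 with the U6 letters and 2 of 5 with the U4 letters, and in no gene of the other groups. CGNAACCC, with or without TGTC, stood in 11 of 12 genes with the U5 letters and 8 of 9 genes of the smy family, but not in smy-10. No smy gene had a thresholded summit within 200 bp.

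Other words stood in particular groups. TGTCGGTA, likewise chosen after the sequences were seen, was found in 13 of 19 genes with the U2 letters, starting 47 bases upstream in each of them. It stood in 23 members in all (17.8%) on either strand and in 0.0801% of protein-coding genes. TATATAA stood in 15 of 24 genes with the U6 letters and in 3 other members, at a median start of 30.5 bases upstream, against 4.05% of protein-coding genes with both strands searched. W05B2.8 shows it near the end of its printed stretch. A TATA-like box at this place is a known feature of genes that RNA polymerase III transcribes from an upstream promoter. None of these matches shows that a factor binds there.

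Of the 129 members, 16 (12.4%, 95% Wilson interval 7.78 to 19.2%) had a thresholded summit within 200 bp of the 5′ end, where all annotated genes had 3.33%. The interval covers counting error only, and genes of a family are not independent. Within 500 bp the count was 18 (14.0%, interval 9.01 to 21.0%), against 5.59% of all annotated genes. For protein-coding genes the share within 500 bp was 10.2%, which is inside that interval. Among other gene classes, 5.68% of 19973 protein-coding genes, 15.3% of 346 snoRNA genes, 8.17% of 612 tRNA genes and 3.07% of 261 miRNA genes had a thresholded summit within 200 bp. The thresholded list holds 2183 peaks and consists of the 2183 strongest of the 30000 entries in the pooled relaxed list, which the labels describe as peaks and background. The values given here as signal are those the authors deposited for each entry, on a scale that the sources used here do not give, and rank 1 is the strongest entry of a list.

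In the relaxed lists the members stood less apart. The pooled list had a summit within 200 bp of 27 members (20.9%), against 18.9% of protein-coding genes and 7523 of the 46890 annotated genes, and within 500 bp of 37 (28.7%), against 31.7% of all annotated genes. The share within 500 bp was thus no higher than the background. Both replicate lists had a summit within 200 bp of 19 members (14.7%), against 6.37% of all annotated genes and 8.97% of protein-coding genes. Within 500 bp they did so for 26 members (20.2%), against 15.4% of all annotated genes and 20.7% of protein-coding genes. For 73 members no list held a summit within 500 bp. Read depth is unknown from the lists, so a missing summit does not show absence of binding.

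The summits lay close to the annotated start and upstream of it. Their distances ran from 150 bp upstream to 136 bp downstream, with a median of 53.5 bp upstream and quartiles of 59.75 and 32.75 bp upstream. Of the 16 genes, 15 had the summit upstream and 14 (87.5%) had it 110 to 20 bp upstream, a stretch chosen after the positions were seen. The same stretch held 30.7% of the summits within 200 bp of protein-coding genes, whose median lay 119.5 bp upstream, and 32.0% of those at tRNA genes, whose median lay 11 bp downstream. At snoRNA genes it held 86.8%, with a median of 54 bp upstream, so the position was shared with that class. These differences in position were not tested.

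**Figure D1:**
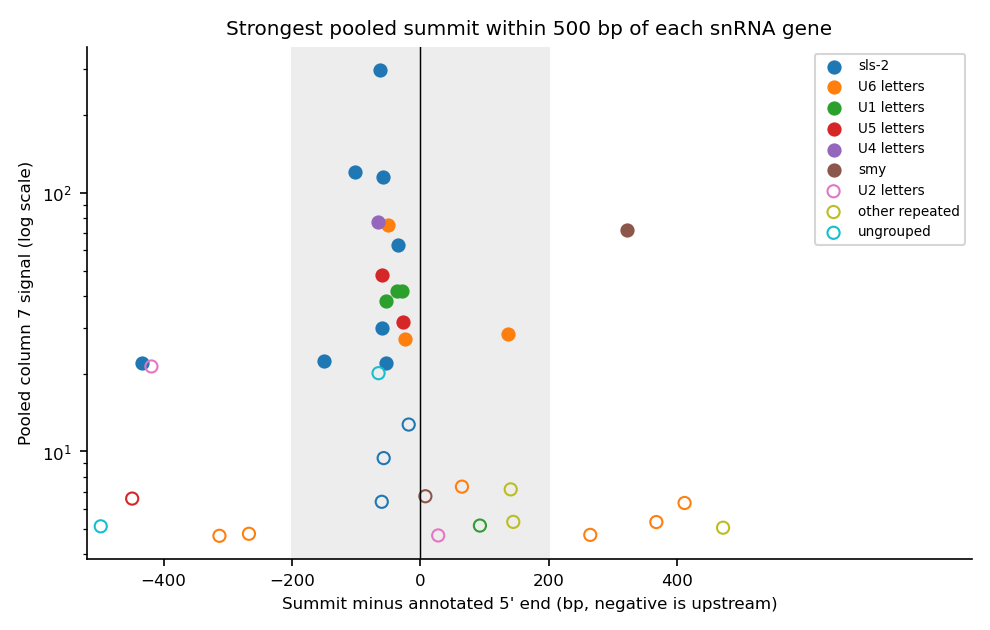
Each point is the strongest pooled summit within 500 bp of an snRNA gene (37 genes), by its distance from the annotated 5′ end in bp and its deposited signal on a log scale. Filled points are thresholded, open points are not, colours are sequence groups, and the grey band is the 200 bp window. The filled points gather around 50 bp upstream, with signals from 22.0 to 297.5.

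The genes for SL2-type RNAs, which supply the leader for downstream genes of operons, held the strongest summits. Of the 19 in the family, 7 had a thresholded summit within 200 bp, and they included the 3 strongest. At sls-2.8 (WBGene00004840) the pooled signal was 297.5, rank 306, with the summit 62 bp upstream. Its rank was 348 in replicate 1 (signal 160.3) and 239 in replicate 2 (signal 137.8), so it stood high in both. The summit also lay 239 bp from the 5′ end of the protein-coding gene tim-1, a worm relative of the clock gene timeless. Nearest to the start of sls-2.8 itself was another coding start, that of Y75B8A.23, at 195 bp. At sls-2.1 (WBGene00004833) on chromosome II the pooled signal was 120.4, rank 546, 102 bp upstream, and its ranks of 571 and 508 in replicates 1 and 2 differed little. Its nearest protein-coding 5′ end, of ZK1248.17, was 778 bp from the summit. At sls-2.4 (WBGene00004836) on chromosome I the pooled signal was 115.3, rank 560, 58 bp upstream, with ranks 555 and 710. The nearest protein-coding start there was that of egg-5, at 559 bp.

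The pair sls-2.2 and sls-2.3 on chromosome II point towards each other with 456 bp between them, and each had its own peak. At sls-2.2 the pooled signal was 62.8, rank 869, 34 bp upstream, with ranks 936 and 909 in replicates 1 and 2. At sls-2.3 it was 30.0, rank 1650, 59 bp upstream, with ranks 1815 and 1642. Both peaks had ins-13, an insulin-like gene, as the nearest protein-coding start, at 1300 and 532 bp. The weakest of the family were sls-2.9 and sls-2.14. At sls-2.9 on chromosome I the pooled signal was 22.4, rank 2127, 150 bp upstream, with ranks 3403 and 2094, and a tRNA gene also had its 5′ end within 500 bp. The nearest coding start was that of sepa-1, at 2989 bp. At sls-2.14 on chromosome III the pooled signal was 22.0, rank 2156, 54 bp upstream, and the replicates differed more, with ranks 1574 and 7514. The same peak lay 433 bp upstream of sls-2.15 and gave that gene its only thresholded summit within 500 bp. W09D6.5, in which the peak lies, had the nearest coding start at 2090 bp.

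Among genes with the U6 letters, 3 of 24 had a thresholded summit within 200 bp. At W05B2.8 (WBGene00014543) the pooled signal was 74.9, rank 763, 51 bp upstream, with ranks 760 and 804 in replicates 1 and 2 (signals 46.7 and 27.6). This gene lies inside dhc-4, a dynein heavy chain gene, and the nearest protein-coding start, of col-94, was 1755 bp away. At F54D8.7 on chromosome III the pooled signal was 28.5, rank 1714, and this was the 1 summit downstream of its start, by 136 bp. The replicates placed it 54 bp downstream (rank 1517) and 58 bp upstream (rank 1715), a spread of 112 bp and the widest among the 16 genes. The nearest coding start was that of cox-6A, a cytochrome c oxidase subunit, at 962 bp. At R07E5.16 on chromosome III the pooled signal was 27.3, rank 1786, 24 bp upstream, inside mpc-1, whose start was 704 bp away. Its ranks of 6482 and 1331 were far apart, and in replicate 1 it fell outside the strongest 2183.

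The genes with the U1 letters, the snRNA that recognises the 5′ splice site, had 3 of 14 members with a thresholded summit within 200 bp. A peak is shared by sup-39 and mir-1831, which is annotated as an snRNA gene of 22 bp inside sup-39. At sup-39 (WBGene00006344) on chromosome II the pooled signal was 41.9, rank 1230, 29 bp upstream, with ranks 1157 and 1406. Counted from mir-1831 the summit lay 36 bp upstream. Both genes are inside C15F1.5, and the nearest coding start, of eif-2Bgamma, was 939 bp away. At sup-6 (WBGene00006315) the pooled signal was 38.0, rank 1342, 53 bp upstream, with ranks 1301 and 1220. It lies inside F58G1.7, whose start was 3238 bp from the summit, the farthest of all.

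The groups with the U5 and U4 letters had 2 of 12 and 1 of 5 members with a thresholded summit within 200 bp. At F38E11.10 (WBGene00014366) on chromosome IV the pooled signal was 48.2, rank 1084, and the pooled and both replicate summits all lay 59 bp upstream, with ranks 1065 and 1350. The nearest coding start was that of F38E11.9, at 543 bp. At F32B5.9 on chromosome I the pooled signal was 31.6, rank 1572, 27 bp upstream, with ranks 2129 and 1376, inside cpz-1, whose start was 509 bp away. At C52E4.8 (WBGene00014291) on chromosome V the pooled signal was 77.3, rank 738, 66 bp upstream, with ranks 691 and 927. This summit lay 329 bp from the start of snr-4, which encodes an Sm protein, and so counts for both genes.

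Of the 9 genes of the smy family, none had a thresholded summit within 200 bp, nor had smy-10. For smy-1 on chromosome IV a thresholded summit (signal 71.9, rank 787) lay 323 bp downstream of the start, past the end of its 77 bp, with ranks 854 and 722. The 5′ end of smy-2, which carries the biotype snoRNA and so is not a member, was within 500 bp of that summit. Within 200 bp of its own start smy-1 had only a weak pooled summit (signal 8.83, rank 6359), 167 bp upstream. For the thresholded summit C33A12.4 had the nearest coding start, at 947 bp.

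**Figure D2:**
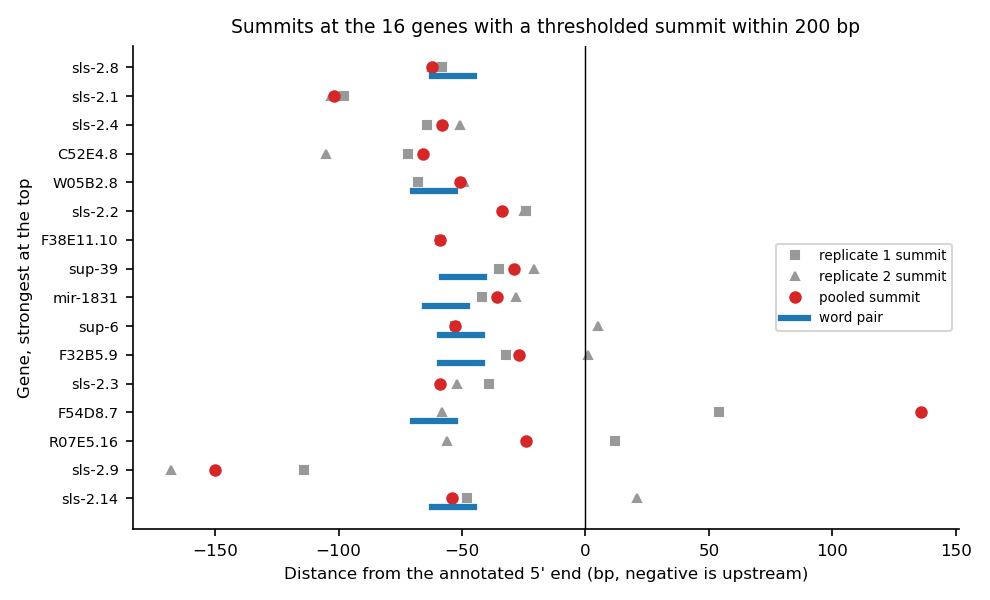
Summit positions at the 16 genes with a thresholded summit within 200 bp, strongest at the top, in bp from the annotated 5′ end (circles pooled, squares replicate 1, triangles replicate 2). Blue bars mark the word pair in the 8 genes that have it. Most summits of all 3 kinds lie between 110 and 20 bp upstream, and F54D8.7 has the widest spread.

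The replicates placed the summits close together. All 16 genes had a summit within 200 bp in both replicate lists, and the replicate summits lay a median of 16.5 bp apart. The peak shared by sup-39 and mir-1831 counts for each of them. The 16 genes were chosen by the thresholded list, which was itself made from both replicates, so agreement between the replicates was in part built in. Within the strongest 2183 entries of its own list, replicate 1 had 14 of the 16 and replicate 2 had 15. Ranks ran from 348 to 6482 in replicate 1, with a median of 1157, and from 239 to 7514 in replicate 2, with a median of 1340. These are values of 2 samples of 1 group, with no measure of spread beyond the pair.

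**Figure D3:**
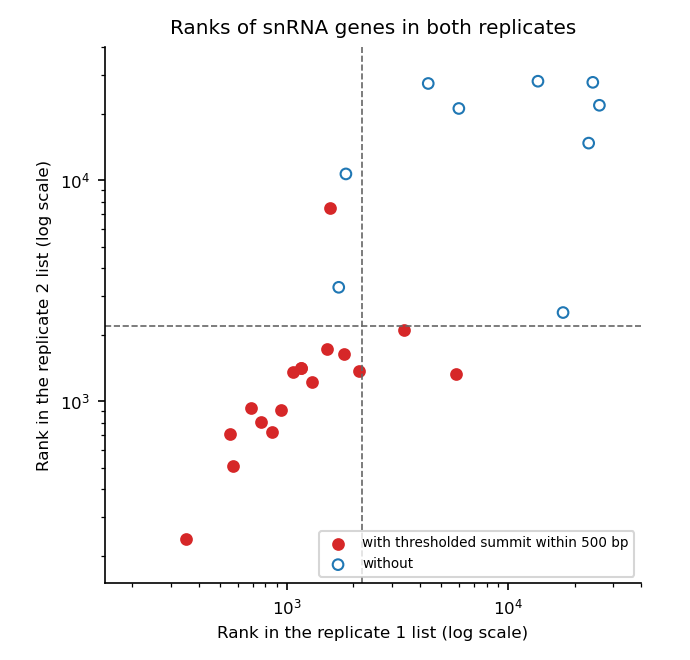
Rank of the strongest summit within 500 bp in the replicate 1 list against the replicate 2 list, both on log scales, for the 26 snRNA genes with a summit in both. Dashed lines mark rank 2183, the length of the thresholded list, and filled points have a thresholded summit within 500 bp. Of the 17 filled points most lie below and left of both lines, and each of the 9 open points is past a line in 1 or both replicates.

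Within the thresholded list, the summits at members were of middling strength. Ranks ran from 306 to 2156 with a median of 1230, and the median signal was 41.9 where that of the whole thresholded list was 47.9. The thresholded summits within 200 bp of protein-coding genes had a median rank of 918, counted once for each gene.

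Just below the threshold, whose weakest peak has a signal of 21.7, F08G2.10 (group U2 letters) had a pooled rank of 2213 (signal 21.3) but with the summit 419 bp upstream. Its ranks in replicates 1 and 2 were 1849 and 10665, and the nearest coding start was that of F08G2.4, at 692 bp. M163.13 on chromosome X came next at rank 2316 (signal 20.1), 65 bp upstream, with ranks 1716 and 3297 within 200 bp and with M163.11 the nearest coding gene at 2576 bp. It belongs to no named family, and its position matched that of the stronger genes. A set of 3 further sls-2 genes had pooled summits at like places. These were sls-2.16 (rank 3492, signal 12.7, 18 bp upstream, nearest coding start B0280.11), sls-2.7 (rank 5563, signal 9.43, 57 bp upstream, but 88 bp from the start of W06D4.3) and sls-2.13 (rank 14176, signal 6.39, 60 bp upstream, nearest coding start msp-57). Their replicate values were uneven. Within 200 bp sls-2.16 had ranks 4358 and 27357, sls-2.7 was found only in replicate 2 (rank 2518), and sls-2.13 only in replicate 2 (rank 29390).

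The same rule named 5 further members with weak summits. C28A5.7 (group U6 letters, rank 10092, 65 bp downstream, near C28A5.6) and C41G6.17 (other repeated, rank 10756, 141 bp downstream, near srw-15) were found within 500 bp in replicate 1 only. So was smy-8 (rank 12534, 8 bp downstream, near Y45F10B.59). ZK897.4 (group U5 letters, rank 13148, 449 bp upstream, near F07C6.3) and F54C8.9 (group U6 letters, rank 14519, 412 bp downstream, near F54C8.6) were found in replicate 2 only. In all, 19 members had a pooled but no thresholded summit within 500 bp.

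The families differed in how many members had a summit, but each holds few genes. None of the 19 genes with the U2 letters and none of the 12 sls-1 genes had a thresholded summit within 500 bp, and no sls-1 gene had a summit of any list. A pooled summit within 200 bp was present at 10 of 19 sls-2 genes, 4 of 24 with the U6 letters, 4 of 14 with the U1 letters, 2 of 12 with the U5 letters and 1 of 19 with the U2 letters. By chromosome, a thresholded summit within 200 bp was present at 3 of 16 members on I, 6 of 16 on II, 5 of 13 on III, 1 of 41 on IV, 1 of 40 on V and 0 of 3 on X. Families and chromosomes overlap, as all 12 sls-1 genes are on V and 11 of 12 genes with the U5 letters are on IV. No test was made of these differences.

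**Figure D4:**
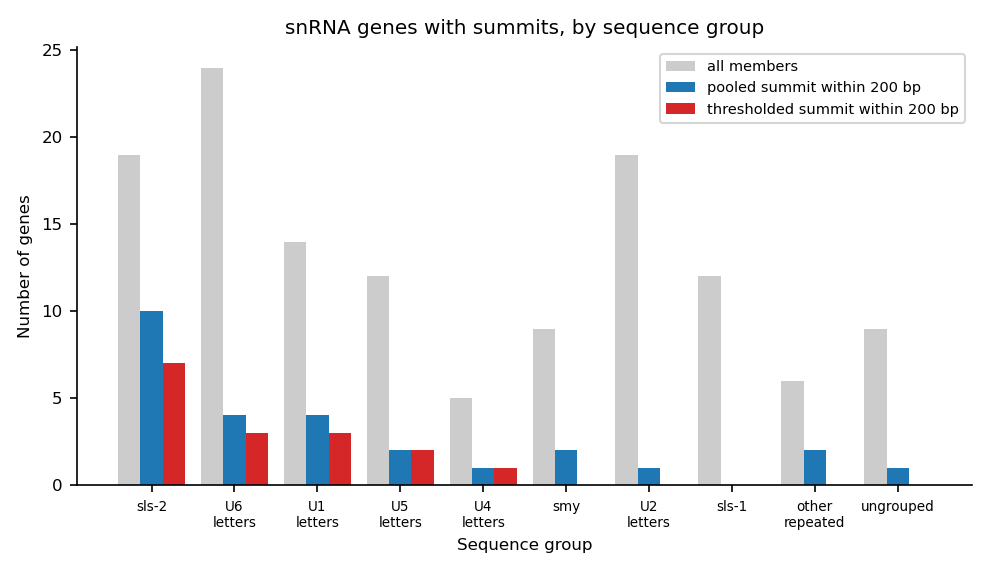
Number of snRNA genes in each sequence group (grey), with a pooled summit within 200 bp (blue) and with a thresholded summit within 200 bp (red). The sls-2 group has the most of both, 10 and 7 of 19, and sls-1 has none.

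The amount of repeated sequence varied with these counts. A read from identical copies cannot be assigned to 1 of them. Each member was given the share of 36-base words in its upstream 200 bp that occur once in the genome. The 12 sls-1 genes had a median of 0% and at most 21.8%. Of the 26 members under 50%, none had a thresholded or a pooled summit within 200 bp, while of the 103 at 50% or more, 16 (15.5%) had a thresholded and 27 a pooled summit. All 16 genes with a thresholded summit were at 77.6% or more. Yet single-copy sequence did not go with a summit in every family. The genes with the U2 letters had a median of 88.5%, and 16 of the 19 were at 50% or more. On chromosomes IV and V, 37 of 41 and 26 of 40 members were at 50% or more, with 1 thresholded summit each. The sources used here give neither the read length nor the handling of reads with several matches, and the part of repeated sequence in the missing summits was not tested.

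**Figure D5:**
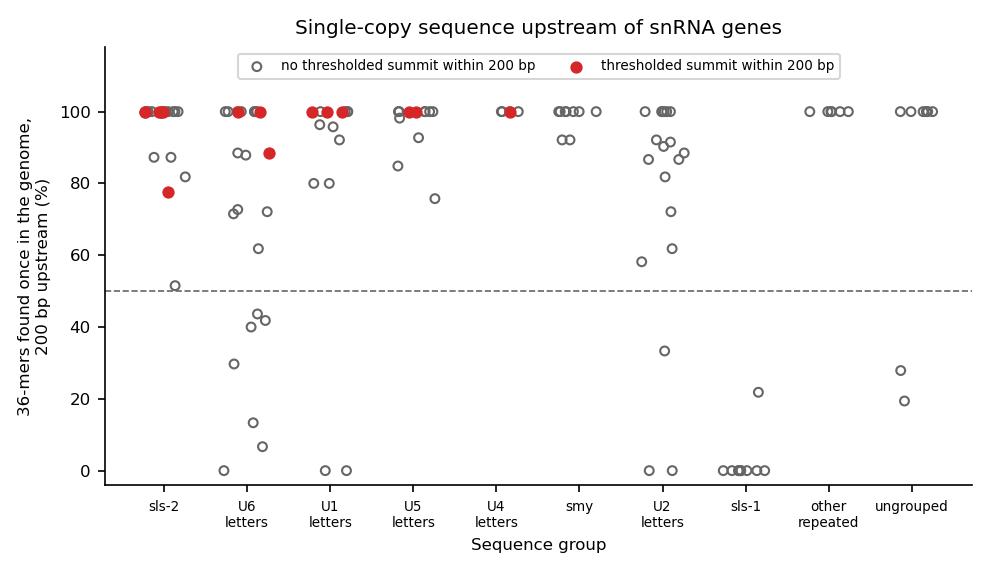
Share of 36-base words in the upstream 200 bp that occur once in the genome (percent), 1 point per snRNA gene, by sequence group with random sideways spread. Filled red points have a thresholded summit within 200 bp, open points have none, and the dashed line is at 50%. All red points are at 77.6% or above, and the sls-1 genes run from 0 to 21.8%.

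Taken over all families, members with the word pair had a summit more often in these counts, but most of them had none, and no test was made. Of the 32 members with the pair, 8 (25.0%) had a thresholded summit within 200 bp and 10 (31.3%) a pooled one. Of the 97 without it, 8 (8.25%) had a thresholded and 17 (17.5%) a pooled summit. Here sup-39 and mir-1831 count as 2 members with the same pair and the same peak. The contrast mixes families, since the groups without the pair also had no thresholded summit within 200 bp. In the sls-2 family 2 of the 9 genes with the pair had such a summit, against 7 of all 19. The others of these 7, sls-2.1, sls-2.2, sls-2.3, sls-2.4 and sls-2.9, lack the pair. Within this family the pair thus did not go with more summits, the reverse of the contrast over all families. By chromosome it was present at 1 of 1 members with the pair on I, 3 of 4 on II and 4 of 8 on III. On IV and V it was present at 0 of 11 and 0 of 8. Among the 30 members that had the pair and at least 50% single-copy upstream sequence, 20 had no pooled summit within 200 bp. K03B8.10 and F40G12.14, whose upstream sequences were shown, are examples of genes with the pair or a near match, 100% single-copy upstream sequence and no summit in any list within 500 bp. At the 7 distinct peaks near these 8 genes, the summit lay 0 to 206 bp from the first base of the pair, with a median of 19 bp, and within 25 bp at 4 of them. The farthest was that of F54D8.7. In the 100 bp centred on a summit, with both strands searched, CGNAACCC was present at 7 of the 15 distinct peaks near members (46.7%) and at 38 of the 2183 thresholded peaks (1.74%). The word was chosen from the upstream sequences of the members, and 35.7% of all members hold it, with or without a summit. A share at these peaks above that of all peaks was therefore built in. ACGCAG, a word taken from earlier work on these peaks, was present at 1 of the 15 (6.67%) and at 411 of the 2183 (18.8%). Upstream of the members themselves, ACGCAG stood in 6 of 129 (4.65%) on either strand, against 2.79% of protein-coding genes.

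Most of the peaks were away from protein-coding starts. The 16 genes were served by 15 distinct peaks, and 13 of these (86.7%) lay more than 500 bp from any protein-coding 5′ end, where 651 of the 2183 thresholded peaks (29.8%) did. Their median distance to such a start was 778 bp, against 242 bp for all thresholded peaks. The exceptions were the peaks at sls-2.8 (nearest coding start tim-1) and C52E4.8 (nearest coding start snr-4). For a summit within 200 bp of a member, much of the distance to a coding start is fixed by where that member lies. The share of all 129 members more than 500 bp from a coding start is not given here. No trait of the binding can therefore be read from the contrast with all thresholded peaks. Peaks within 200 bp of a member made up 2.00% of all thresholded peaks that far from a coding start. Of the 16 genes, 7 lie inside a protein-coding gene, as do 67 of all 129.

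The protein-coding genes that make and use snRNAs were also examined, as lists chosen with earlier results known, beside a background of 10.2% of protein-coding genes with a thresholded summit within 500 bp. Of the Sm and LSm genes, whose products form rings on snRNAs, 11 of 15 had such a summit. The strongest were at snr-6 (signal 613.8, rank 50) and lsm-6 (363.7, rank 220). Of the 11, only those of lsm-6 and gut-2 lay within 200 bp of the start. The summit at snr-4 was that of the peak also counted for C52E4.8. Of the Integrator genes, whose complex cleaves snRNA 3′ ends, 7 of the 11 matched had one, among them ints-11 (254.4, rank 367), the catalytic subunit. Of the genes for snRNP-specific and assembly proteins, 9 of 21 had one, led by usp-39 (581.8, rank 60) and prp-31 (330.1, rank 258). Of the SNAPc and TBP list, 2 of the 10 matched had one, snpc-3.4 (525.6, rank 93) and snpc-4 (55.6, rank 972), the DNA-binding subunit. The signals at snr-6, usp-39 and snpc-3.4 were all higher than that of 297.5 at sls-2.8, the strongest snRNA gene. The snr-6 summit, however, lay more than 200 bp from the snr-6 start.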

How the data were processed

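The authors deposited peak lists, here used in ce11, for 2 biological replicates of ChIP-seq on eGFP-F16B12.6 in L1 larvae. Per the file headers and notes, each replicate list came from the alignments of that replicate and 1 control, the pooled list from both replicates, and the thresholded list from all of these. The signal of each entry (column 7 as deposited by the authors) was used for ranks only within its list. The sources used here give no peak caller, read length, depth or signal scaling. Summits were the entry start plus the offset in column 10, and 5′ ends and biotypes were from Ensembl release 115, with symbols from RefSeq matched by gene ID for 129 of 129 members. Genes were grouped, by chains of pairs, at 70% identity over the longer gene or where 1 held the other whole (Biopython 1.88). Single-copy words were 36 bases long, and at 50 bases 105 members in place of 103 were at 50% or more. Scripts ran under Python 3.11.15, NumPy 2.4.6 and pandas 2.3.3, and the window search was tested on simulated summits. The members, gene lists and words were chosen with earlier results of these data known. Named genes were every member with a thresholded summit within 500 bp and the 10 strongest others. No test was made, because there was 1 group. The samples carry biological replicate numbers, but whether they came from separate cultures is not given. Alternatives were other windows, entry overlap, the upstream side, merged loci, single-copy windows, a stricter threshold and each replicate alone.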

Additional observations from a re-analysis of the deposited data

How the results depend on the processing

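Of 33 values under alternative settings, 24 stayed within 1.5 times the reported count or, for the median rank, within the spread between replicates. The count of 16 genes with a thresholded summit within 200 bp was 17 when any overlap of the peak counted, 15 with the strongest 2183 entries of either replicate in its place, and 7 in the stronger 50% of the thresholded peaks. The count of 18 within 500 bp was 18 from replicate 1, 16 from replicate 2 and 8 in the stronger 50%. For 16 genes the summit within 500 bp had no protein-coding start within 500 bp of it. That count was 16 from replicate 1, 13 from replicate 2 and 6 in the stronger 50%. The 37 genes with a pooled summit within 500 bp became 21 at 100 bp and 56 at 1000 bp. The 26 with both replicates became 15 and 42, and 16 with the upstream side alone. The median pooled rank within 500 bp was 2213, and the medians were 5994 in the replicate 1 list and 3275 in the replicate 2 list. Those lists hold different members, and the causes were not tested. Merging overlapping windows, which leaves 106 loci, gave 15, 34 and 24 in place of 18, 37 and 26, and keeping the 112 genes with mostly single-copy windows gave 18, 37 and 26. A ranking by column 8 was not run, because that column holds 1 value in every list. Depth is unknown, so the lists cannot tell a weak site from an unbound one. No paired analysis was possible because there is 1 group and no result comes from a test.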
